A study of Drosophila melanogaster with 12 samples.

Results

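The genes described here lie in the last 1 Mb of chromosome arms 3L and X, the stretch of each arm that is nearest to its centromere in the dm3 assembly. A gene was a member when its midpoint lay within 1 Mb of the largest gene end of its arm, which is 24535278 on 3L and 22415998 on X, and when it had a sense count of at least 1 CPM of the library total in at least 2 of 8 libraries. The CPM values given below are scaled to library totals adjusted by TMM factors, which lay between 0.949 and 1.065. *AGO3*, ribosomal protein genes, and noncoding RNA genes with a CR, mir, or snoRNA name were left out. This gave 40 members, 11 on 3L and 29 on X, of 9612 genes that passed the same filter and 15998 genes listed. On 3L the window held 22 genes, of which 1 was left out by name and 10 were below the filter, with at most 13 counts in a library. On X it held 46 genes, of which 4 were left out by name and 13 were below the filter, with at most 7 counts in a library. Position, name, and the filter on low levels chose the members. The X members mgn00447, mgn00218, CG17599, and CG34334 were under 1 CPM in both S2 libraries and passed the filter through mutant libraries alone, as 2.33% of all genes tested did, so that their direction against S2 is partly set by the filter. The heterochromatic scaffolds of the assembly carry further sequence of both chromosomes, so the largest gene end of an arm is not its centromere. The 2 arms are described apart.

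Nascent RNA, which stays with RNA polymerase II on the chromatin pellet after urea washes, was sequenced from 4 cell lines in 2 libraries each. S2 is a highly polyploid cultured line that carries a male karyotype, and it is the unedited parent. G3, A7, and B2 are *upSET* mutants of S2, each grown from 1 sorted cell after Cas9 cutting, so that each mutant group is a single clone. G3 lost the start codon, while A7 and B2 carry frameshift deletions. The labels do not say that the 2 libraries of a line came from separate cultures, and the p-values measure the spread between these libraries only. UpSET is a SET domain protein of a histone deacetylase complex, and the mutant lines were compared with S2 to ask how transcription differs without it.

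Next to the centromeres, *Drosophila* chromosomes are packed as heterochromatin, which is rich in transposon remnants, is marked by methylation of histone H3 at lysine 9, and is bound by HP1. The packing silences many genes that are moved into it, yet genes whose normal home is there can be active, and several of them need it for full expression. Such genes often spread over long introns filled with repeats. Reads from repeats cannot be placed, and the authors kept only reads with a single alignment, so a long gene here is counted on the unique part of its extent. The X of a male cell is also transcribed at a raised level by the MSL complex, which is guided by the roX RNAs.

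Sense counts summed to between 4738785 and 10902304 per library, and 3 counts equal between 0.283 and 0.642 CPM, and this covers counting error alone. The nascent RNA of *upSET* (CG9007) was present in all 8 libraries, at 544 to 566 CPM in S2 and at 460 to 761 CPM in the mutant lines, and its lesions are short deletions that this count does not show. The 8 listed genes of the hemocyte-like S2 list summed to 2570 to 2810 CPM in S2 and 2450 to 3430 CPM in the mutant lines. Within this sum, the collagen IV genes *vkg* and *Cg25C* went from 18 to 29.4 and 8.29 to 8.92 CPM in S2 to 110 to 516 and 70.3 to 423 CPM in the mutant lines, and *Pxn* from 790 to 807 CPM to 228 to 677 CPM. The part of these shifts in the results was not tested. Neuron markers summed to between 70.2 and 108 CPM and follicle cell markers to between 11.8 and 40.9 CPM. Germ line markers summed to at most 19.9 CPM, muscle markers to at most 6.26 CPM, and epidermis or gut markers to at most 6.07 CPM. *roX1* stood apart, with 13.6 and 15.2 CPM (S2), 3861 and 4168 (G3), 316 and 145 (A7), and 15.1 and 49.2 (B2). Its part in the X values below was not tested. In these bulk libraries, fewer cells with a transcript and less of the transcript per cell cannot be told apart.

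On 3L, nascent sense RNA of the unannotated gene mgn00472 rose 6.85-fold in G3 and 11.5-fold in A7 over S2, and that of its neighbour mgn00284 rose 10.3-fold in G3. A further unannotated gene, mgn00285, was lower in all 6 mutant libraries than in both S2 libraries. All of them lie at the distal edge of the window. The other 8 members were not called in any line, and they include the vesicle fusion gene *Snap25* and the ecdysteroid synthesis gene *nvd*. A gene was called changed when its edgeR quasi-likelihood p, adjusted by the Benjamini-Hochberg method over all 9612 genes, was under 0.05. The fit was made with the lines alone and again with the replicate number as a block, because same-numbered libraries deviated together in all line pairs. Without the block, 2 of 11 members were called in G3, 1 in A7, 0 in B2, and 1 for the mean of the 3 lines, all of them higher. Over all genes tested, 0.603% were called in G3, 0.375% in A7, 0.0104% in B2, and 0.156% for the mean. At an unadjusted p under 0.05, 3, 3, and 4 of the 11 members passed in G3, A7, and B2, against 11.1%, 8.75%, and 3.25% of all genes. Those in B2 were *mRpS5* and the genes mgn00284, mgn00472, and mgn00285. All but *mRpS5* lie inside the extent of *AGO3*. Their reads were therefore also counted for *AGO3*, as sense or antisense, and are not measured apart from it. With the block, 2 members were called in G3, 2 in A7, 2 in B2, and 3 for the mean, against 5.85%, 3.67%, 0.427%, and 1.99% of all genes.

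The gene mgn00472 spans 6.84 kb of 3L, from 23576774 to 23583611. Its sense level was 7.41 and 3.17 CPM (S2), 41.6 and 33.4 (G3), 63.7 and 62.1 (A7), and 19.1 and 20.3 (B2). All 6 mutant libraries were above both S2 libraries, and the ranges of the 3 mutant lines did not overlap each other. Its log2 fold change against S2 (log2FC) was 2.78 ± 0.33 (SE) in G3 with an adjusted p of 0.0209 by edgeR. In A7 the log2FC was 3.52 ± 0.33 with an adjusted p of 0.0102 by edgeR. In B2 it was 1.84 ± 0.33, and the adjusted p by edgeR was 0.342 without the block and 0.0282 with it. The mean of the lines was 2.71 ± 0.30 with an adjusted p of 0.0269 by edgeR. The G3 call was lost without G3 replicate 1, G3 replicate 2, or A7 replicate 2 (adjusted p of 0.113, 0.0728, and 0.0526 by edgeR), and the A7 call without A7 replicate 1 or 2 (0.066 and 0.0578). The call for the mean was lost without any single library but S2 replicate 1, with adjusted p values by edgeR from 0.0581 to 0.0862.

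The gene mgn00284 spans 3.77 kb of 3L, from 23570116 to 23573880. It was at 1.97 and 1.23 CPM (S2), 18.3 and 15.7 (G3), 1.98 and 5.49 (A7), and 9.07 and 13.1 (B2). G3 and B2 lay above S2 in both libraries, whereas 1 A7 library was at the level of S2. The log2FC was 3.36 ± 0.51 in G3 with an adjusted p of 0.0463 by edgeR. This call was lost without S2 replicate 1 or 2 (adjusted p of 0.145 and 0.268 by edgeR), G3 replicate 1 or 2 (0.213 and 0.189), or B2 replicate 1 or 2 (0.0911 and 0.0894), and with scaling by library size alone (0.0584). In B2 the log2FC was 2.73 ± 0.51, with an adjusted p by edgeR of 0.427 without the block and 0.054 with it. In A7 it was 1.10 ± 0.54, with an adjusted p by edgeR of 0.644. The mean of the lines, 2.40 ± 0.46, had an adjusted p by edgeR of 0.186 without the block and 0.0294 with it.

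The gene mgn00285 spans 8.18 kb of 3L, from 23671248 to 23679427, and had the highest level of the 3L members. It was at 528 and 586 CPM (S2), 402 and 507 (G3), 298 and 341 (A7), and 341 and 395 (B2). No mutant library reached the lower S2 library. Its log2FC was −0.29 ± 0.16, −0.80 ± 0.16, and −0.60 ± 0.16 in G3, A7, and B2, and the edgeR fit without the block called none of these, with adjusted p values of 0.598, 0.147, and 0.999. With the block, the adjusted p by edgeR was 0.112, 0.00362, and 0.0458 in G3, A7, and B2.

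**Figure D1:**
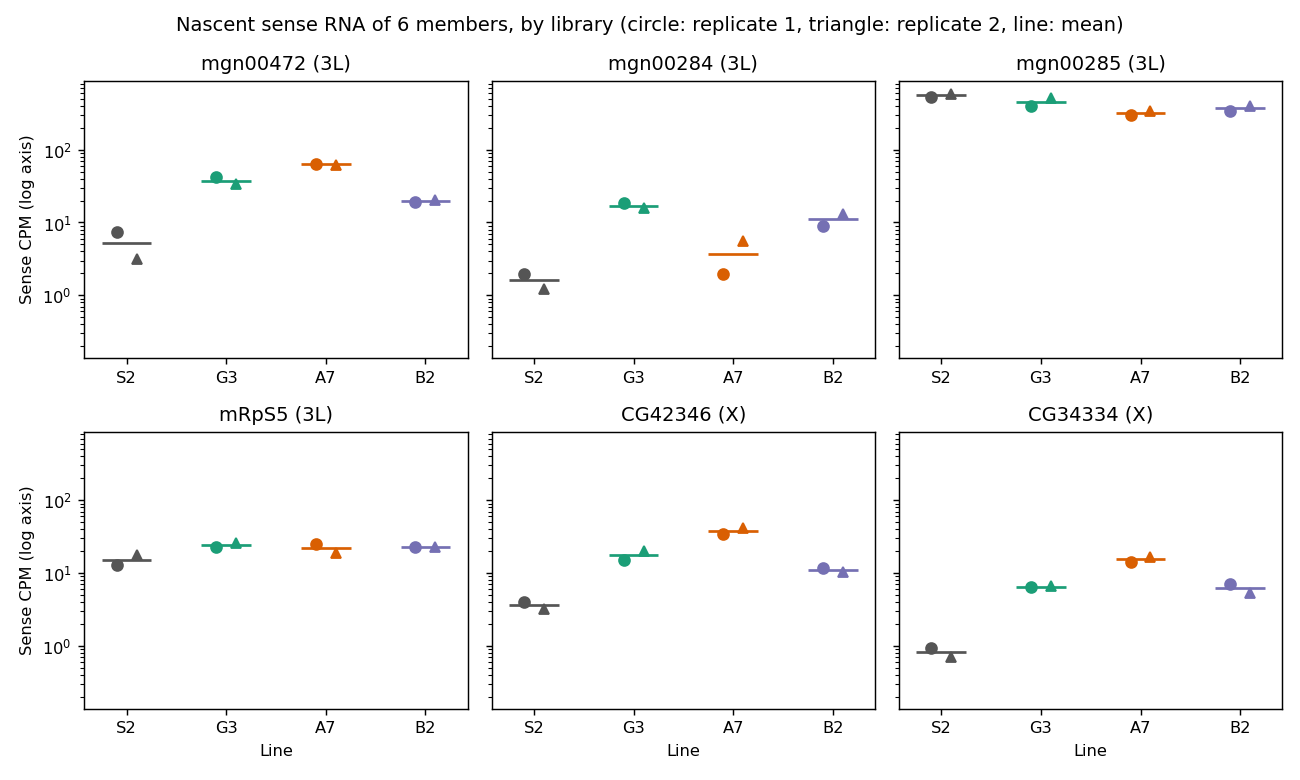
Sense level in CPM on a log axis of 6 members, by line. Circles are replicate 1, triangles are replicate 2, and horizontal lines are the mean of the 2 libraries. CG42346 and CG34334 were lowest in S2 and highest in A7, as was mgn00472, while mgn00284 was highest in G3 and mgn00285 was highest in S2.

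All 3 of these genes lie wholly inside the listed extent of *AGO3*, an Argonaute protein of the piRNA pathway that silences transposons in the germ line. The files give each gene a start and an end but no strand and no exons, and a read in an overlap was counted for both genes, since *stnA* and *stnB* of X share 1 extent and have identical counts. *AGO3* itself is no member and was at 148 and 61.9 sense CPM (S2), 751 and 585 (G3), 1545 and 1181 (A7), and 383 and 374 (B2). The order of the lines was thus the same for *AGO3* and mgn00472, and the mgn00472 count made up between 4.12% and 5.71% of the *AGO3* sense count in every library. Reads of mgn00472 cannot be told apart from reads of *AGO3* in these counts. Without the 3 genes inside *AGO3*, 0 of the other 8 members of 3L were called in any line by edgeR without the block. None of these 8 was called in the edgeR fit with the block either.

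Antisense counts, which the choice of members did not use, were fitted in the same way over 12610 genes. The antisense count of mgn00285 was 43 and 13 (S2), 205 and 75 (G3), 518 and 160 (A7), and 95 and 49 (B2). Its antisense log2FC was 2.24 ± 0.44 in G3 with an adjusted p of 0.0106 by edgeR, and 3.42 ± 0.45 in A7 with an adjusted p of 0.000105 by edgeR. In B2 it was 1.76 ± 0.44, with an adjusted p by edgeR of 0.278 without the block and 0.000157 with it. For mgn00285, each mutant library was thus below both S2 libraries in sense CPM and above both in antisense CPM. The antisense count of mgn00285 was between 2.49% and 3.7% of the *AGO3* sense count, and its sense count was between 58.1% and 73% of the *AGO3* antisense count. Antisense reads of mgn00285 therefore cannot be told apart from sense reads of *AGO3* in these counts. In S2 the sense counts of mgn00285, 4560 and 3325, exceeded the *AGO3* sense counts, 1279 and 351. Its sense reads thus fell on the strand counted as antisense for *AGO3*. The antisense count of mgn00284 was 5 and 6 (S2), 45 and 26 (G3), 131 and 46 (A7), and 37 and 6 (B2). Its antisense log2FC was 3.63 ± 0.65 in A7, the line in which its sense count was nearest to S2, with an adjusted p of 0.00539 by edgeR. In G3 and B2 the antisense adjusted p of mgn00284 by edgeR was 0.162 and 1 without the block and 0.00011 and 0.0186 with it. The antisense count of mgn00284 was between 0.343% and 1.71% of the *AGO3* sense count, and its antisense reads cannot be told apart from *AGO3* reads either. The sense count of mgn00284 was between 0.148% and 2.65% of the *AGO3* antisense count, a far wider range than that of the other pairs.

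**Figure D2:**
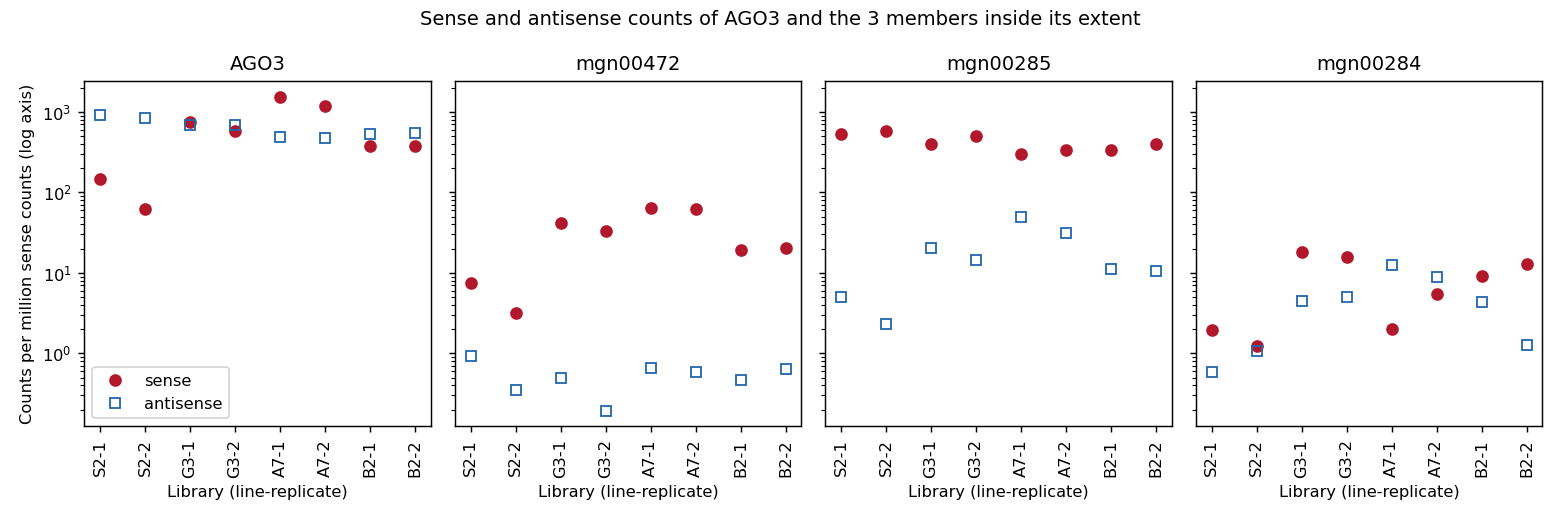
Sense (filled circles) and antisense (open squares) levels in CPM of the sense library total, on a log axis, of AGO3 and of the 3 members inside its extent, in each of the 8 libraries. In CPM, the AGO3 and mgn00472 sense levels and the mgn00285 antisense levels were lowest in the 2 S2 libraries and highest in the 2 A7 libraries.

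Among 11 members of 3L, 1 was called on antisense counts in G3, 2 in A7, and 0 in B2 by edgeR, against 0.444%, 0.293%, and 0.0634% of all genes fitted. At an unadjusted p under 0.05, 2, 2, and 3 of the 11 passed in G3, A7, and B2, against 2.99%, 3.41%, and 3.47% of all genes fitted. The calls without the block were mgn00285 in G3 and A7 and mgn00284 in A7. Both genes lie inside *AGO3*, so these calls are not measured apart from *AGO3*. With the block the counts were 3, 2, and 4 in G3, A7, and B2, against 1.96%, 2.1%, and 1.51% of all genes. The added calls with the block were mgn00284 in G3 and B2, mgn00285 in B2, CG17454 in G3 and B2, and CG17698 in B2. CG17454, the splicing factor gene *Spf30*, had 80, 260, 155, and 227 antisense counts in replicate 1 of S2, G3, A7, and B2, but 0, 6, 2, and 0 in replicate 2. The listed gene CG40298, which lies near it and did not pass the sense filter, had between 124 and 317 antisense counts in replicate 1 and between 0 and 5 in replicate 2. The values of CG17454 in the 2 replicates are therefore not repeats of each other, and its antisense calls rest on replicate 1.

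CG17698, CG40045, CG17454, and *mRpS5* were the remaining 3L members of moderate or high level. CG40045, whose RefSeq synonym *Ube2G1* names a ubiquitin-conjugating enzyme, had log2FCs of 0.37 ± 0.25, 0.23 ± 0.25, and 0.13 ± 0.25 in G3, A7, and B2. CG17698 lay between 139 and 313 CPM, and its replicate 1 was above its replicate 2 in all 4 lines. CG17454 lay between 23.5 and 41.5 CPM. These 3 members had the smallest changes among the 3L members of at least 10 CPM, and none was called in either fit. The mitochondrial ribosomal protein gene *mRpS5*, which is the member of 3L nearest to the arm end, was at 12.7 and 17.6 CPM (S2), 22.5 and 26.2 (G3), 25.2 and 19 (A7), and 22.6 and 23.1 (B2). All 6 mutant libraries of *mRpS5* were above both S2 libraries, and its log2FC of 0.69 ± 0.22, 0.56 ± 0.22, and 0.60 ± 0.22 in G3, A7, and B2 differed between lines by less than 1 SE. It was not called, with adjusted p values by edgeR of 0.295, 0.514, and 0.999 without the block and 0.0883, 0.163, and 0.393 with it.

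The long genes of 3L had few counts for their length. *Snap25*, a SNARE protein that drives vesicle fusion at synapses, spans 225 kb and was at 17.3 and 3.35 CPM (S2), 14.7 and 6.21 (G3), 10.5 and 8.43 (A7), and 10.7 and 8.34 (B2). The 2 S2 libraries of *Snap25* bracket all 6 mutant libraries. CG40470, which spans 147 kb, was at 10.8 and 1.23 CPM in S2 and between 0.856 and 9.6 CPM in the mutant lines. *nvd*, or *neverland*, encodes the oxygenase of the first step of ecdysteroid synthesis, spans 76.8 kb, and was at 3.71 and 0 CPM in S2 and at most 1.67 CPM in a mutant library. Their levels per length in S2 were 0.0458 CPM per kb for *Snap25*, 0.041 for CG40470, and 0.0241 for *nvd*, against a median of 7.68 CPM per kb over all tested genes. Antisense counts made up 63.3% of the counts of *Snap25*, 51.6% of those of CG40470, and 52.6% of those of *nvd*, against a median of 5.66% over all tested genes. The SE of their log2FC was 0.68 for *Snap25*, 1.00 for CG40470, and 1.38 for *nvd* in G3. Even a change well above its SE can stay uncalled here, as did that of *mRpS5* in G3, at 0.69 ± 0.22. The unannotated gene mgn00473 was at 4.63 and 0.881 CPM in S2 and between 3.21 and 7.74 CPM in the mutant lines, with a mean log2FC of 0.97 ± 0.57 and an adjusted p of 0.717 by edgeR.

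**Figure D3:**
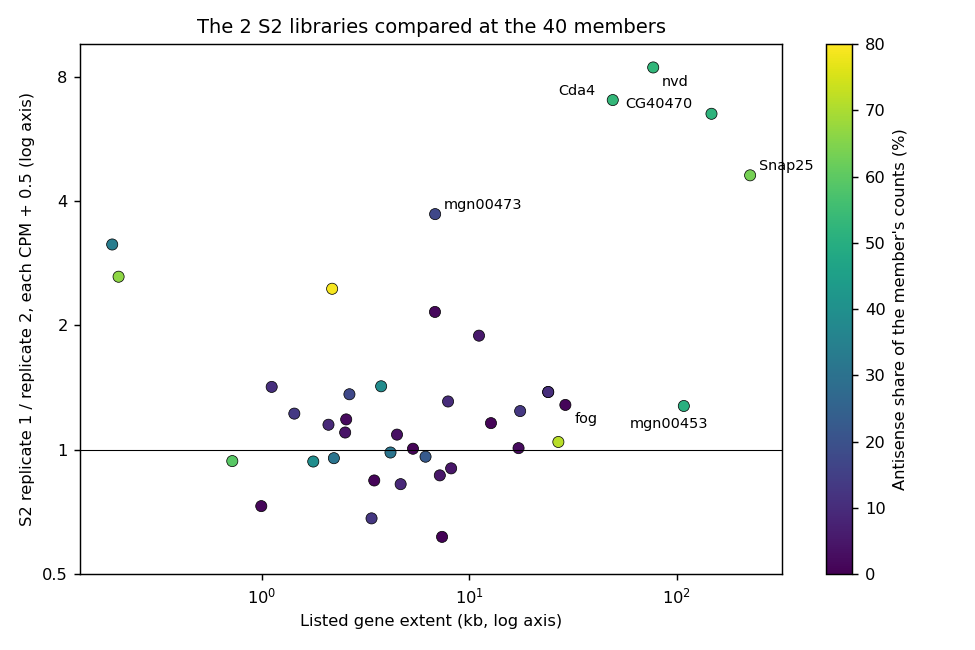
Ratio of replicate 1 to replicate 2 of S2, with 0.5 CPM added to each, against the listed gene extent in kb, both on log axes, for the 40 members. Colour gives the share of antisense counts in percent. The long genes nvd, Cda4, CG40470, and Snap25 have ratios of 8.41, 7.02, 6.5, and 4.61, while mgn00453 and fog each have a ratio of 1.28.

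On X, nascent sense RNA of CG42346 rose 4.79-fold in G3 and 10.4-fold in A7 over S2, and that of CG34334 rose 7.73-fold in G3 and 18.2-fold in A7. Both genes were higher in all 6 mutant libraries than in S2. The other 27 members were not called against S2, and they include the secreted morphogenesis ligand *fog*, the kinase gene *S6kII*, and the synaptic vesicle genes *stnA* and *stnB*. Without the block, 2 of 29 members were called in G3, 2 in A7, 0 in B2, and 2 for the mean of the lines by edgeR, and wherever 2 were called they were CG42346 and CG34334. At an unadjusted edgeR p under 0.05, 3, 4, and 2 of the 29 passed in G3, A7, and B2, against 11.1%, 8.75%, and 3.25% of all genes. With the block, CG42346 and CG34334 were both called in G3, A7, B2, and the mean, and no other member of X was. The shares of all genes called at the adjusted threshold, given above for 3L, are the background for these counts too. CG34334 lies wholly inside CG42346, so that the calls of both genes are not separate measurements.

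CG42346 is a protein-coding gene that spans 17.6 kb, from 22268488 to 22286070, and 139 kb separate its midpoint from the arm end. It was at 4.05 and 3.17 CPM (S2), 15.2 and 20.2 (G3), 34.7 and 41.5 (A7), and 11.8 and 10.5 (B2). The 4 lines did not overlap, and both libraries of each line were close. The log2FC of CG42346 was 2.26 ± 0.23 in G3 with an adjusted p of 0.0123 by edgeR, and 3.37 ± 0.23 in A7 with an adjusted p of 0.00225 by edgeR. In B2 it was 1.61 ± 0.24, with an adjusted p by edgeR of 0.248 without the block and 0.035 with it. The mean of the lines was 2.41 ± 0.21 with an adjusted p of 0.0092 by edgeR. The A7 call was kept under all 12 alternatives fitted. The G3 call was lost without S2 replicate 1, S2 replicate 2, or G3 replicate 2 (adjusted p of 0.0555, 0.0801, and 0.0574 by edgeR). The call for the mean was lost without S2 replicate 1, S2 replicate 2, or A7 replicate 2 (adjusted p of 0.0596, 0.0945, and 0.0511 by edgeR).

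CG34334 is a protein-coding gene of 2.56 kb, from 22274648 to 22277203, which is 14.5% of the extent of CG42346. It was at 0.927 and 0.705 CPM (S2), 6.49 and 6.6 (G3), 14.2 and 16.6 (A7), and 7.19 and 5.35 (B2). The S2 values rest on 8 and 4 counts, and no mutant library came near them. Both S2 values are under the minimum of the filter, which CG34334 passed through the mutant libraries alone, so that its rise is partly set by how it was chosen. Its calls in G3 and A7 were also made in the fit with no filter on low counts. The log2FC of CG34334 was 2.95 ± 0.32 in G3 with an adjusted p of 0.0134 by edgeR, and 4.18 ± 0.31 in A7 with an adjusted p of 0.00349 by edgeR. In B2 it was 2.90 ± 0.32, with an adjusted p by edgeR of 0.0808 without the block and 0.0142 with it. The mean of the lines was 3.35 ± 0.29 with an adjusted p of 0.0092 by edgeR. The A7 call was kept under all 12 alternatives fitted. The G3 call was lost without S2 replicate 1 or 2 (adjusted p of 0.0851 and 0.0989 by edgeR) and without G3 replicate 1 or 2 (0.0863 and 0.0727). The call for the mean was lost without S2 replicate 1, S2 replicate 2, or A7 replicate 2 (adjusted p of 0.0628, 0.0945, and 0.0511 by edgeR).

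The share of the CG42346 sense count that fell on CG34334 was 22.9% and 22.2% (S2), 42.6% and 32.7% (G3), 41% and 40.1% (A7), and 61% and 51% (B2). Each mutant library thus had a larger share of the locus on CG34334 than both S2 libraries. The S2 shares rest on 8 of 35 and 4 of 18 counts. CG34334 passed the filter through mutant libraries alone, so that its low share in S2 is partly set by the filter. The rest of CG42346 without CG34334 was at 3.13 and 2.47 CPM (S2), 8.75 and 13.6 (G3), 20.5 and 24.9 (A7), and 4.59 and 5.13 (B2). The rest of the locus, so counted, was also above S2 in every mutant library. The noncoding gene CR43656, left out by its name, also lies inside CG42346, and had 0 and 1 sense counts in S2 and between 5 and 42 in the mutant libraries. It had 18 and 9 in B2, where the rest of CG42346 had 39 and 24 counts. No strand is listed, so counts of CR43656 may be part of that rest. The B2 rise of the rest is therefore not measured apart from CR43656. No member of X was called on antisense counts by edgeR without the block in any line, although 0, 2, and 2 passed an unadjusted p of 0.05 in G3, A7, and B2, against 2.99%, 3.41%, and 3.47% of all genes fitted. With the block, the antisense count of CG42346 was called in A7, from 14 and 1 counts in S2 to 57 and 23 in A7, with a log2FC of 2.37 and an adjusted p of 0.00104 by edgeR.

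The mutant lines were also compared with each other. CG42346 was the only member called between lines without the block, and it was higher in A7 than in B2 by a log2FC of 1.76 ± 0.21, with an adjusted p of 0.0297 by edgeR. The share of all genes called was 0.291% between A7 and B2, 0.208% between G3 and A7, and 0.239% between G3 and B2, and 3.9%, 2.99%, and 3.85% with the block. With the block, CG42346 was also higher in A7 than in G3, by 1.12 on the log2 scale with an adjusted p of 0.0146 by edgeR. CG34334 was then higher in A7 than in G3 and B2, with adjusted p values by edgeR of 0.0311 and 0.0238. On 3L, mgn00472 was then higher in G3 and in A7 than in B2 (adjusted p of 0.0471 and 0.00388 by edgeR). Also with the block, mgn00284 and mgn00285 were higher in G3 than in A7 (0.0168 and 0.0323). On X, *fog* was then lower in G3 than in B2 and the unannotated gene mgn00453 was higher in A7 than in B2, with adjusted p values by edgeR of 0.0244 and 0.0474.

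**Figure D4:**
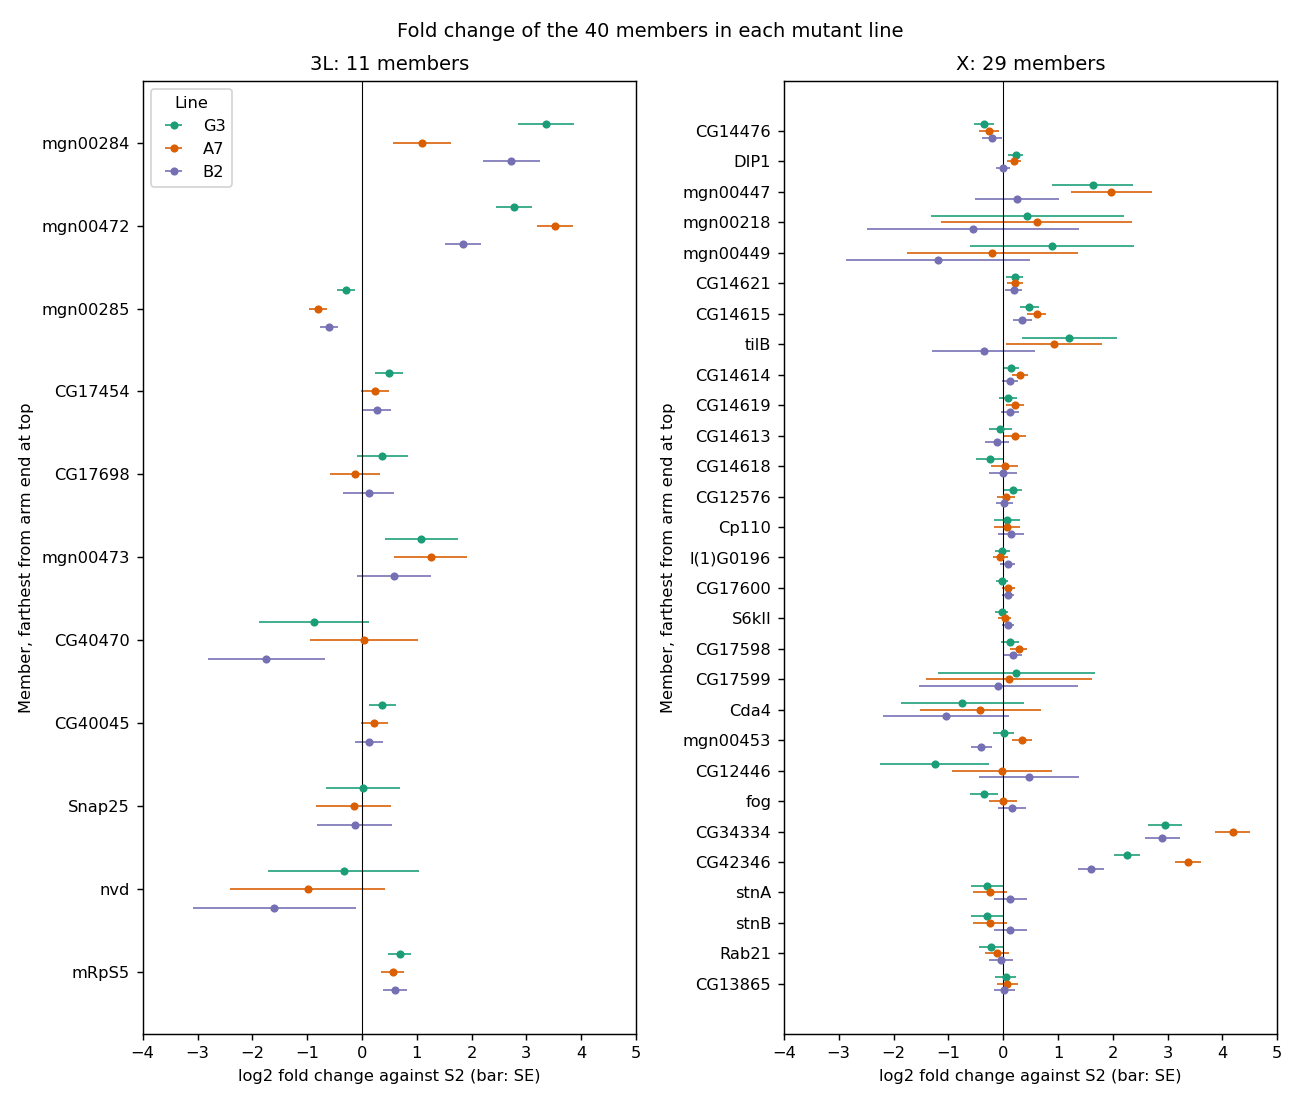
The log2FC against S2 of the 40 members in G3, A7, and B2 by edgeR without the replicate block, with bars of 1 SE, ordered from the member farthest from the arm end at the top. On X, CG42346 and CG34334 are above 1 on the log2 scale in all 3 lines and no other member is, and the widest bars belong to members with few counts.

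No other member of X was called against S2. *fog*, a secreted ligand that triggers apical constriction in the embryo, had the highest level of the members, from 772 to 1593 CPM. It was at 1376 and 1072 CPM (S2), 1155 and 772 (G3), 1369 and 1079 (A7), and 1593 and 1137 (B2). Replicate 1 of *fog* was above replicate 2 in all 4 lines, and the lines overlapped. *l(1)G0196*, a kinase that makes inositol pyrophosphates, lay between 367 and 474 CPM, with log2FCs of −0.02, −0.05, and 0.08 in G3, A7, and B2. *stnA* and *stnB*, the 2 reading frames of the *stoned* locus that acts in synaptic vesicle recycling, share all their counts and are 1 measurement, which lay between 252 and 494 CPM. CG14619, the deubiquitinase gene *Usp2*, lay between 221 and 312 CPM. *S6kII*, a kinase of the RSK family, lay between 36.9 and 40.4 CPM and was among the members that changed least, with log2FCs of −0.03 ± 0.11, 0.03 ± 0.11, and 0.09 ± 0.11. CG17600 was as steady, with log2FCs of −0.02 ± 0.12, 0.09 ± 0.11, and 0.09 ± 0.12, but 71.5% of its counts were antisense and it overlaps *S6kII* and CG17598.

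CG14476, the gene *GCS2alpha* of the glucosidase that trims sugars on new glycoproteins in the endoplasmic reticulum, was at 177 and 214 CPM in S2 and between 141 and 191 CPM in the mutant lines. Its log2FC of −0.34 ± 0.18, −0.25 ± 0.18, and −0.20 ± 0.18 in G3, A7, and B2 was not called. CG14615 was at 20.2 and 21 CPM (S2), 24.4 and 33.2 (G3), 30.9 and 31.9 (A7), and 26 and 26.3 (B2). All 6 mutant libraries were above both S2 libraries, but CG14615 was not called, with a mean log2FC of 0.48 ± 0.14 and adjusted p values by edgeR of 0.48 without the block and 0.101 with it. The 2 members at the arm end were *Rab21*, an endosomal GTPase, at 14.6 to 21 CPM, and CG13865, the cytochrome c oxidase assembly gene *Coa7*, at 8.57 to 9.51 CPM in all 8 libraries. The members mgn00447, *tilB*, CG12446, and *Cda4* had mean log2FCs of 1.28 ± 0.65, 0.59 ± 0.75, −0.27 ± 0.74, and −0.74 ± 0.88, were at most 6.72 CPM, and were not called. Among them, mgn00447 was at 0.811 and 0.705 CPM in S2 and above this in both A7 libraries, at 3.49 and 2.55 CPM, with a log2FC of 1.97 ± 0.74 in A7 and adjusted p values by edgeR of 0.498 without the block and 0.0987 with it. The S2 values of mgn00447 rest on 7 and 4 counts. It passed the filter through mutant libraries alone, so that this direction is partly set by the filter. The double-stranded RNA binding gene *DIP1*, the centriole gene *Cp110*, CG14614 (*wap*), CG14621, CG14613, CG14618, CG12576, and CG17598 had log2FCs between −0.25 and 0.31 in each line. The overlapping genes mgn00218 and mgn00449 and CG17599, the ciliary transport gene *Cluap1*, were at most 3.15 CPM in a library. *tilB* acts in the motility of cilia, and *Cda4* is related to enzymes that modify chitin. *Cda4* spans 49.1 kb and resembled the long genes of 3L, with 6.72 and 0.529 CPM in S2 and 53.1% antisense counts. mgn00453, which spans 108 kb and had 50.5% antisense counts, differed less between the S2 libraries, with 51 and 39.8 CPM.

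The count of members whose 6 mutant libraries all lay above both S2 libraries was 3 of 11 on 3L (mgn00284, mgn00472, and *mRpS5*) and 4 of 29 on X (CG14621, CG14615, CG42346, and CG34334), where 3.8% of all genes tested did so. For mgn00284 this rests on 1.98 CPM in an A7 library against 1.97 CPM in an S2 library. CG34334 lies inside CG42346 and passed the filter through mutant libraries alone, so its place in this count is partly set by the filter. All mutant libraries lay below S2 for 1 of 11 members on 3L, mgn00285, and 0 of 29 on X, against 4.26% of all genes. With each mutant library set against the S2 library of its own number, all 6 pairs were higher for 5 of 11 members on 3L and 5 of 29 on X, against 9.18% of all genes, and all 6 were lower for mgn00285 on 3L and CG14476 on X, against 11.1%. In G3, 8 of 11 members of 3L and 17 of 29 of X had a log2FC above 0, against 42.7% of all genes. In A7 these counts were 7 and 20, against 43.8%, and in B2 7 and 19, against 45.3%. The X counts and medians include mgn00447, mgn00218, CG17599, and CG34334, which were under 1 CPM in both S2 libraries. Such genes made up 13.8% of the X members, against 2.33% of all genes. All 4 were above 0 in G3 and A7, a direction partly set by the filter. The median log2FC of the 3L members was 0.37, 0.23, and 0.13 in G3, A7, and B2. These medians depended on which S2 library was kept. Without S2 replicate 1 they were larger, at 1.44, 1.49, and 0.66 in G3, A7, and B2, and without S2 replicate 2 the B2 median was −0.09. Each of these fits sets 1 S2 library against both libraries of each mutant line, so a difference between replicate numbers enters them. The A7 and B2 medians of 3L also turned to −0.13 and −0.30 with no filter on low counts, and to −0.15 and −0.14 in a window of 0.5 Mb. The median of the X members was 0.07, 0.09, and 0.09 in G3, A7, and B2, and with scaling by library size alone the G3 and B2 medians of X turned to −0.05 and −0.01. Over all genes tested the medians were −0.06, −0.05, and −0.03. With mgn00284, mgn00472, mgn00285, CG34334, *stnB*, and mgn00218 left out because they lie in or share the extent of another gene, a choice made after the data were seen, the 8 members left on 3L held 0 calls and the 26 left on X held 1 call in G3, 1 in A7, and 0 in B2 by edgeR without the block.

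Along the arms, 6 of the 11 members of 3L lay 750 to 1000 kb from the arm end, where the median log2FC of the mean of the lines was 0.66, and the 5 members nearer to the end had medians of −0.31 (500 to 750 kb), −0.09 (250 to 500 kb), and −0.18 (0 to 250 kb) for 2, 1, and 2 genes. On X the medians were 0.14, 0.12, 0.04, and −0.09 for 3, 12, 6, and 8 members in the same order of distance. The next 1 Mb of 3L, from 1 to 2 Mb, held 36 tested genes with medians of 0.27, 0.23, and 0.07 in G3, A7, and B2, and 29, 25, and 22 of them were above 0. The rest of 3L held 1687 genes with medians of −0.01, −0.09, and −0.02. From 1 to 2 Mb on X, 47 genes had medians of 0.09, 0.14, and 0.05, and the remaining 1415 had medians of 0.01, 0.02, and 0.00. No test of the difference between the members and the next 1 Mb of their arm was made.

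**Figure D5:**
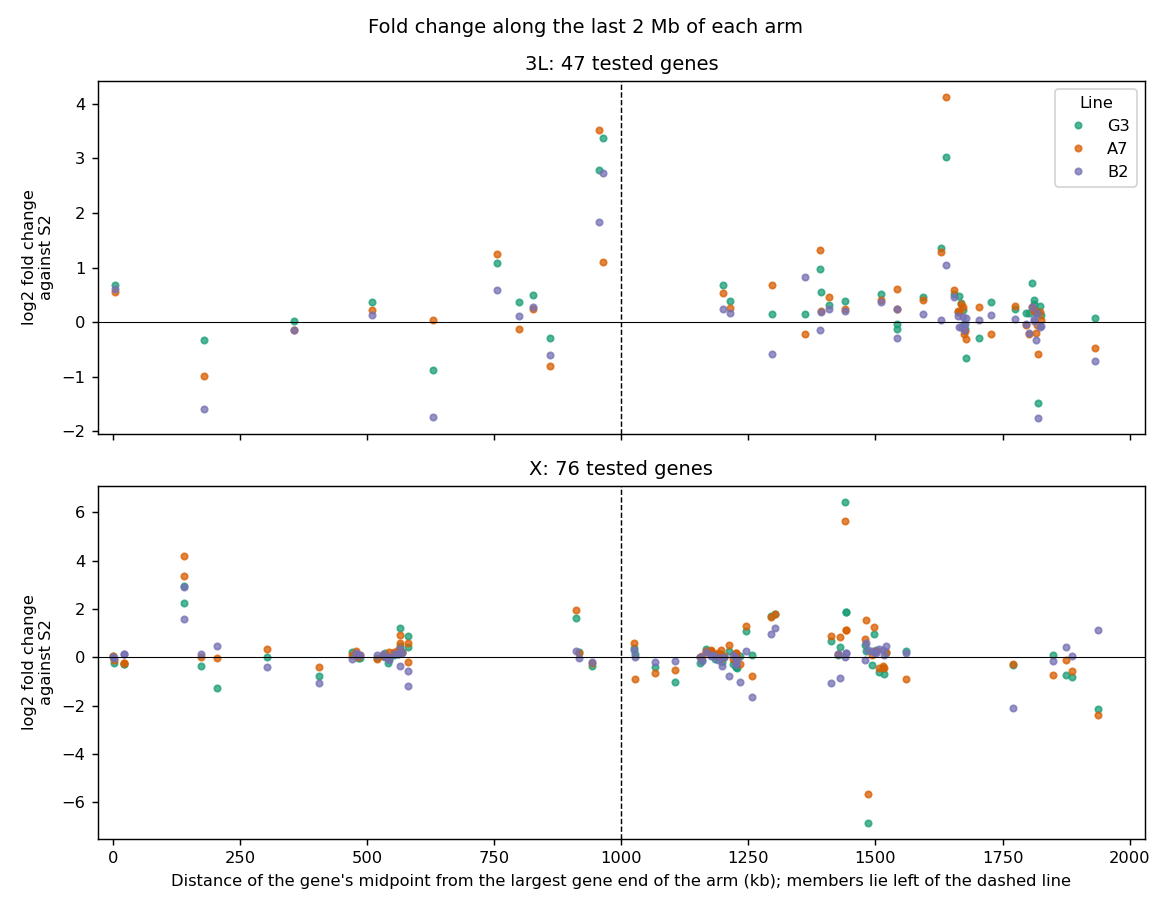
The log2FC against S2 in G3, A7, and B2 of each tested gene of the last 2 Mb of 3L (47 genes) and X (76 genes), against the distance in kb of the gene's midpoint from the largest gene end of the arm. Members lie left of the dashed line at 1000 kb. The high values on X at 139 and 140 kb are CG42346 and CG34334, and those on 3L at 955 and 963 kb are mgn00472 and mgn00284.

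Extent and antisense share were not used to choose the members. The listed extent had a median of 7.4 kb on 3L and 4.49 kb on X, against 2.79 kb over all tested genes, and 3 of 11 and 2 of 29 members were longer than 40 kb. The median antisense share was 17.2% on 3L and 10.9% on X, against 5.66% over all tested genes. Per length, the median sense level in S2 was 0.774 CPM per kb on 3L and 7.78 CPM per kb on X, against 7.68 CPM per kb over all tested genes, a level on which the filter bears. Of 11 members on 3L, 7 had a protein-coding entry in RefSeq and 4 had no entry, and of 29 on X these numbers were 25 and 4, after noncoding genes had been left out by name. On X, 15 of 29 members overlapped another member, so that the members are not all separate measurements. Of 13 genes of X below the filter, 6 had 0 counts in all 8 libraries. Since reads with several alignments were dropped, a gene with a near-identical copy can be listed at 0, and these zeros do not measure transcription.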

How the data were processed

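Nascent-RNA libraries of S2, G3, A7, and B2 (2 each) were analyzed, and the ChIP samples of the series were not used here. The authors trimmed adaptors, aligned reads to dm3 with Bowtie (version 0.12.7 in the submitters' processing notes), kept single alignments, and deposited whole-number sense and antisense counts per gene. The notes also name bedtools, with no role, and the sources used here do not say how reads were counted. The second series of columns, numbered differently from the labels, was taken as replicate 2. Counts were fitted in R 4.3.3 with edgeR 4.0.16 (TMM, glmQLFit, glmQLFTest, 4 line coefficients, 8 libraries), with genes at a CPM of the library total of at least 1 in at least 2 libraries, with Benjamini-Hochberg adjustment over all genes tested. After subtraction of line means, log2 CPM of libraries with equal numbers correlated between lines (r from 0.5 to 0.633), so the replicate number was also fitted as a block. The block lowered the common dispersion from 0.0657 to 0.0143. The SE given with a log2FC is its absolute value divided by the square root of its F statistic from glmQLFTest. Alternatives were DESeq2 1.42.0, library size alone, no filter, other windows, and leaving out each library. Members and lists were chosen with earlier results of these data known. Named genes were CG42346 and CG34334 (both on X), members called, the 8 with the largest mean change, the 5 highest, the 3 changed least at 10 CPM or more, the 3 nearest the arm end, and those called on antisense counts. Gene names came from RefSeq Release 6, whose coordinates were not used. Promoter sequences were not analysed here.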

Additional observations from a re-analysis of the deposited data

Results flagged for a closer look

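CG42346 differed between mutant lines by a test of the difference itself. Its log2FC in A7 exceeded that in B2 by 1.765, with an adjusted p of 0.0297 by edgeR's quasi-likelihood test without the replicate block and 0.00184 with it. Both A7 libraries (34.7 and 41.5 CPM) were above both B2 libraries (11.8 and 10.5 CPM). Both lines are single clones, so a difference between clones and a difference between lesions cannot be told apart.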

How the results depend on the processing

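With the replicate block, calls on 3L rose to 2 in A7, 2 in B2, and 3 for the mean of the lines, those on X in B2 to 2, and the X median in A7 moved to 0.0818. Between lines, 2, 1, and 1 members of 3L and 2, 1, and 3 of X were then called (G3 against A7, G3 against B2, A7 against B2), and on antisense counts 3 (G3) and 4 (B2) on 3L and 1 (A7) on X. DESeq2 called 2 members of 3L in A7, 2 in B2, and 2 for the mean, and 2 of X in B2, with an X median in A7 of 0.11. With no filter on low counts the counts were again 2, 2, 2, and 2, with medians of 0.20 (G3), −0.13 (A7), −0.30 (B2), and −0.062 (mean) on 3L and 0.17 (A7) on X. Scaling by library size alone moved the median of all genes by −0.12 in G3, left 1 call on 3L in G3, and gave X medians of −0.0495 in G3, 0.0532 in A7, −0.00962 in B2, and −0.031 for the mean. A window of 0.5 Mb held 0 calls on 3L in G3, 0 in A7, and 0 for the mean, with medians of 0.022 (G3), −0.15 (A7), −0.14 (B2), and −0.0875 (mean) on 3L and −0.0249 (G3), 0.0513 (A7), and 0.00664 (mean) on X. A window of 2 Mb held 2 calls on 3L and 4 on X in A7, with an X median of 0.11. Without the 6 nested or duplicate members, an alternative added after the data were seen, 0 calls remained on 3L in G3, 0 in A7, and 0 for the mean, and X held 1 in G3, 1 in A7, and 1 for the mean, with a median of 0.0836 in A7. Leaving out 1 library gave 0 to 2 calls in G3, 0 to 1 in A7, and 0 to 1 for the mean on 3L, and 0 to 2 in G3 and 0 to 2 for the mean on X. The 3L medians then ranged from 0.37 to 1.44 in G3, 0.23 to 1.49 in A7, −0.0876 to 0.66 in B2, and 0.22 to 1.45 for the mean. The X medians ranged from 0.00657 to 0.10 in G3, 0.0803 to 0.21 in A7, 0.0026 to 0.26 in B2, and 0.0281 to 0.14 for the mean. The cause of these moves was not tested. Of 1338 values of named members under the alternatives, 1287 kept their direction or stayed uncalled, 32 lost a call, 19 gained one, and 0 reversed, while 105 uncalled values changed sign. Only a value called in the main fit could lose a call, and most of the 1338 values were uncalled there. The total of 1338 is therefore not the base against which to set the lost calls. The SE of a log2FC against S2 lay between 0.67 and 1.94 for the 10 members with a mean under 5 CPM and between 0.115 and 0.69 for the other 30.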
